A study of Mus musculus with 19 samples.

Results

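Heparan sulfate is a sugar chain that cells attach to proteins of their surface and matrix, and its 10 enzymes described here either build the chain, sulfate it or remove sulfate from it again. They are Ext1 and Ext2, Ndst1 and Ndst2, Hs2st1, Hs6st1, Hs6st2 and Hs6st3, and Sulf1 and Sulf2. They were chosen by gene symbol, and each matched 1 of the 47069 genes in the RNA-seq count tables of mouse retinal ganglion cells (RGCs) at E16.5. The cells compared were iRGCs, whose axons stay on their own side of the brain at the optic chiasm, and cRGCs, whose axons cross. iRGC libraries came from embryos with Slc6a4-Cre, the Sert-Cre line ET33, and cRGC libraries from embryos with Pou4f2-Cre, in which Cre was targeted into the Brn3b locus. All embryos also carried a CAG-driven loxP-stop-loxP Sun1-GFP reporter in Rosa26, and the labels give them as WT, from a C57/DBA F1 strain, with males and females pooled. GFP-positive cells were sorted from dissociated retinas, for cRGCs after the ventrotemporal part, where iRGCs arise, had been cut away. Each population had 3 libraries, with 28193178 to 33638083 reads counted on genes.

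The Sun1-GFP reporter marks a cell once Cre has acted in it, and also its descendants, so the sort does not depend on Slc6a4 or Pou4f2 being expressed at the time of collection. The number of embryos behind each library is not stated in the sources used here, nor whether the 3 libraries of a population came from separate litters. The p-values given below therefore measure the spread between these samples, which may be partly technical.

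Synthesis of heparan sulfate takes place in the Golgi. The Ext1 and Ext2 proteins form the complex that lengthens the chain, the Ndst enzymes replace acetyl groups on glucosamine with sulfate, and the 2-O- and 6-O-sulfotransferases Hs2st1 and Hs6st1 to Hs6st3 add further sulfates at set positions. The Sulf enzymes act outside the cell, where they take 6-O-sulfates off finished chains. The pattern of sulfates governs how well the chains bind secreted signals such as Slits, FGFs and Wnts, and in mice both Hs2st1 and Hs6st1 are needed for RGC axons to take their normal course at the optic chiasm.

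The labelled cell types were checked against marker genes. Zic2, the transcription factor that specifies iRGCs, reached 133, 173 and 157 CPM in iRGC replicates 1 to 3 and 56.9, 60.2 and 65.6 CPM in cRGC replicates 1 to 3, a log2 fold change of 1.34 (SE 0.13). CPM, the unit of level used here, are counts scaled to a fixed library size after TMM normalization, and all log2 fold changes are of iRGCs over cRGCs. Slc6a4, the serotonin transporter gene whose regulatory sequence drives Cre in the iRGC line, stood at 2.06, 33.3 and 116 CPM in the iRGC libraries and at 48.0, 35.4 and 30.5 CPM in the cRGC libraries. The library labelled iRGC replicate 1 was thus the lowest of all 6 in Slc6a4, and for this gene the populations overlapped. Ephb1, the receptor by which iRGC axons are repelled at the midline, overlapped as well, with 57.3, 57.5 and 109.6 CPM in iRGCs against 69.2, 85.1 and 115 CPM in cRGCs.

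Markers of RGCs in general were lower in the iRGC libraries. Of 12 such genes, 11 fell and none rose, and their summed level was 2249, 3169 and 4876 CPM in iRGCs against 12686, 11539 and 14036 CPM in cRGCs. The most abundant or leading gene of a marker list is named here by mean CPM over all 6 libraries, not divided by exon length. It need not lead in each library or population, or per kilobase of exon. Among these RGC markers it was Nefm, a neurofilament gene, with 417, 525 and 973 CPM against 2128, 1808 and 2815 CPM. Per kilobase of exon, Gap43 stood higher, at 390 in iRGCs and 1478 in cRGCs, against 110 and 389 for Nefm. Markers of retinal progenitors went the other way, with 14 of 16 higher and 1 lower (Six3), and summed to 12193, 10948 and 9892 CPM in iRGCs against 2492, 3807 and 3131 CPM in cRGCs. Their most abundant gene was Ccnd1, a cyclin, at 3358, 2646 and 2517 CPM against 277, 779 and 471 CPM. In both lists every iRGC library lay outside the range of the cRGC libraries. In bulk samples, fewer cells of a type and less RNA per cell cannot be told apart. The study also states that iRGCs are born later, so that at E16.5 they are on average younger than cRGCs. The part of this age difference in the values was not tested.

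Endothelial markers summed to 469, 723 and 436 CPM in iRGCs and to 89.1, 109 and 71.9 CPM in cRGCs, with all 7 tested of 11 higher in iRGCs by edgeR, of which limma voom did not call Pecam1, Flt1, Esam, Cd34 and Egfl7. Without iRGC replicate 2, edgeR called 4 of these 7 (Kdr, Flt1, Cldn5 and Cd34), and the log2 fold change of Egfl7 went from 2.82 to 0.67. Esam was also not called without cRGC replicate 2 or 3, nor Egfl7 without any 1 of the cRGC libraries. The most abundant was Kdr, at 366, 320 and 418 CPM in iRGCs against 83.6, 103 and 67.5 CPM in cRGCs, a gene that retinal progenitors are also known to express. Cdh5, which is specific to endothelium, had 15.2, 81.2 and 0.157 CPM in iRGCs and was listed at 0 in all cRGC libraries, so iRGC replicate 2 stood highest and iRGC replicate 3 was near 0. In iRGC replicate 2 the endothelial markers other than Kdr, such as Cdh5, Cd34 (75.1 CPM) and Pecam1 (53.0 CPM), made up more of the sum than Kdr did. Mural cell markers summed to 132, 275 and 107 CPM against 20.8, 31.1 and 22.4 CPM. Notch3 was the most abundant, at 113, 117 and 83.4 CPM in iRGCs, and in iRGC replicate 2 Rgs5 added 93.7 CPM, against 3.76 and 2.24 CPM in the other iRGC libraries. Photoreceptor precursor markers, led by Neurod1, summed to 1067, 829 and 839 CPM against 153, 273 and 201 CPM. Amacrine markers, led by Tfap2b, summed to 299, 252 and 355 CPM against 126, 154 and 100.4 CPM. Ciliary margin markers summed to 84.0, 274 and 38.7 CPM against 19.8, 33.5 and 35.3 CPM, again highest in iRGC replicate 2. Ccnd2 had the highest mean over all libraries (37.6, 97.5 and 9.79 CPM in iRGCs), but in iRGC replicate 3 and in the cRGC libraries Cdo1 was the most abundant, at 17.6 CPM and at 16.2, 28.0 and 25.9 CPM. Horizontal cell markers, led by Onecut2, overlapped, with 400.4, 383 and 416 CPM against 290.4, 318 and 418 CPM. Astrocyte markers reached 207, 150 and 179 CPM against 27.6, 48.0 and 31.8 CPM. Slc1a3 alone gave 202, 146 and 175 CPM of this in iRGCs and 19.2, 40.9 and 23.7 CPM in cRGCs. Pax2, Gfap, Aqp4 and S100b had at most 0.864 CPM in any library. Of the 6, 2 were tested: Slc1a3, the most abundant, was higher in iRGCs, and Aldh1l1 was lower (log2 fold change -1.09, SE 0.36), a call lost without iRGC replicate 2, cRGC replicate 1 or cRGC replicate 3 (edgeR adjusted p up to 0.135). Erythroid markers, led by Hbb-bs, had 12.2, 94.6 and 15.7 CPM against 0, 5.48 and 0.290 CPM. For microglia, led by Csf1r, the sums were 20.3, 26.4 and 16.2 CPM against 1.11, 4.07 and 1.84 CPM. Per kilobase of exon, C1qa, C1qb and C1qc had higher means than Csf1r in both populations. Fibroblast markers (led by Col1a2), pigment epithelium markers (Rlbp1) and lens markers (Bfsp1) summed to at most 36.3, 10.7 and 16.4 CPM in any library, and Lum and Mip, markers of fibroblasts and lens, were at 0 in all 6. These differences accompany each fold change below, and their part in the results on the 10 enzymes was not tested.

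**Figure D1:**
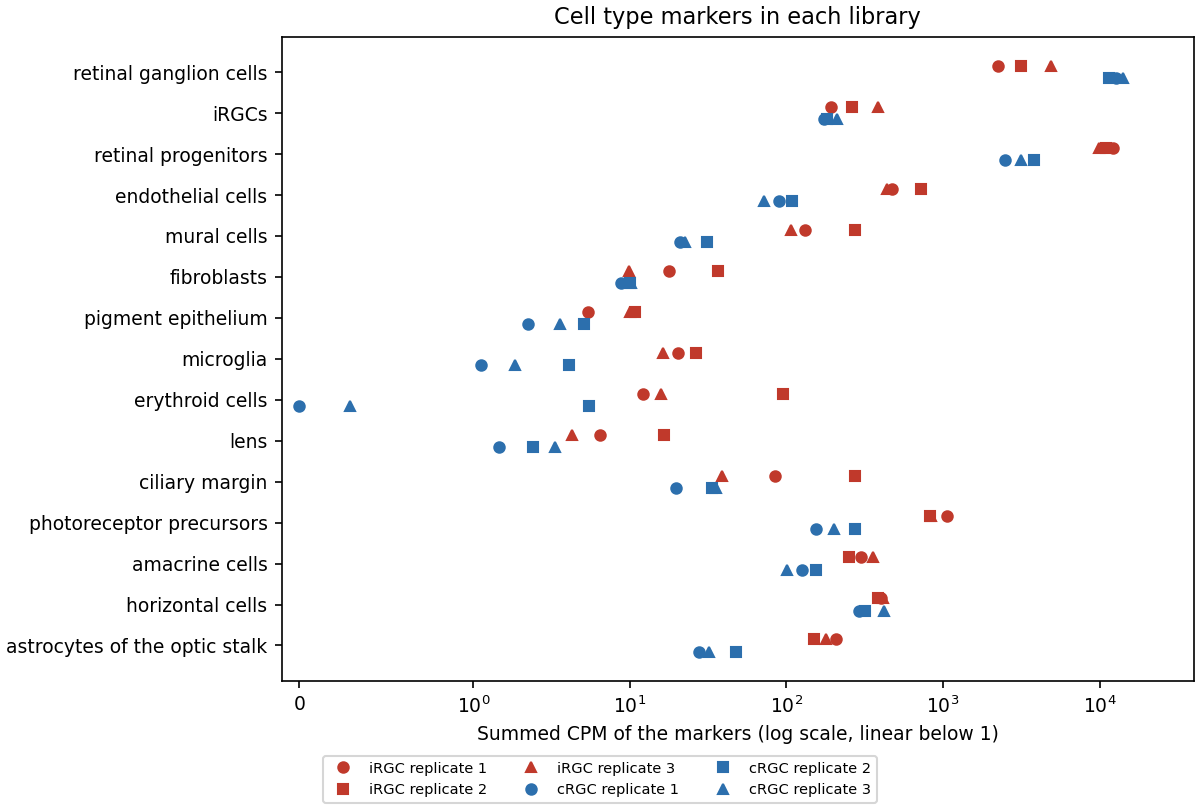
Summed CPM of each cell type's marker genes (horizontal axis, log scale that is linear below 1) in the 3 iRGC libraries (red) and the 3 cRGC libraries (blue), 1 symbol per library. Retinal ganglion cell markers lie at 2249 to 4876 CPM in iRGCs and 11539 to 14036 CPM in cRGCs, and progenitor markers at 9892 to 12193 CPM and 2492 to 3807 CPM.

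Most of the heparan sulfate enzymes differed between the populations. In iRGCs, 6 of the 10 were higher (Ext1, Ext2, Ndst2, Hs2st1, Sulf1 and Sulf2) and 1 was lower (Hs6st1), at an adjusted p under 0.1 by edgeR's quasi-likelihood test with Benjamini-Hochberg adjustment over the 15941 genes that passed the filter on low counts. All 10 passed that filter. Among all tested genes, 23.3% were higher and 23.1% were lower by the same rule. The median log2 fold change was 0.43 over the 10 enzymes and -0.00 over all tested genes. In the same 6 genes every iRGC library lay above every cRGC library, which held for 27.1% of all tested genes, and in Hs6st1 every iRGC library lay below, as in 28.2% of them. Without iRGC replicate 1, the library low in Slc6a4, the test called 5 enzymes higher and 1 lower, and Hs2st1 was the call that was lost.

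**Figure D2:**
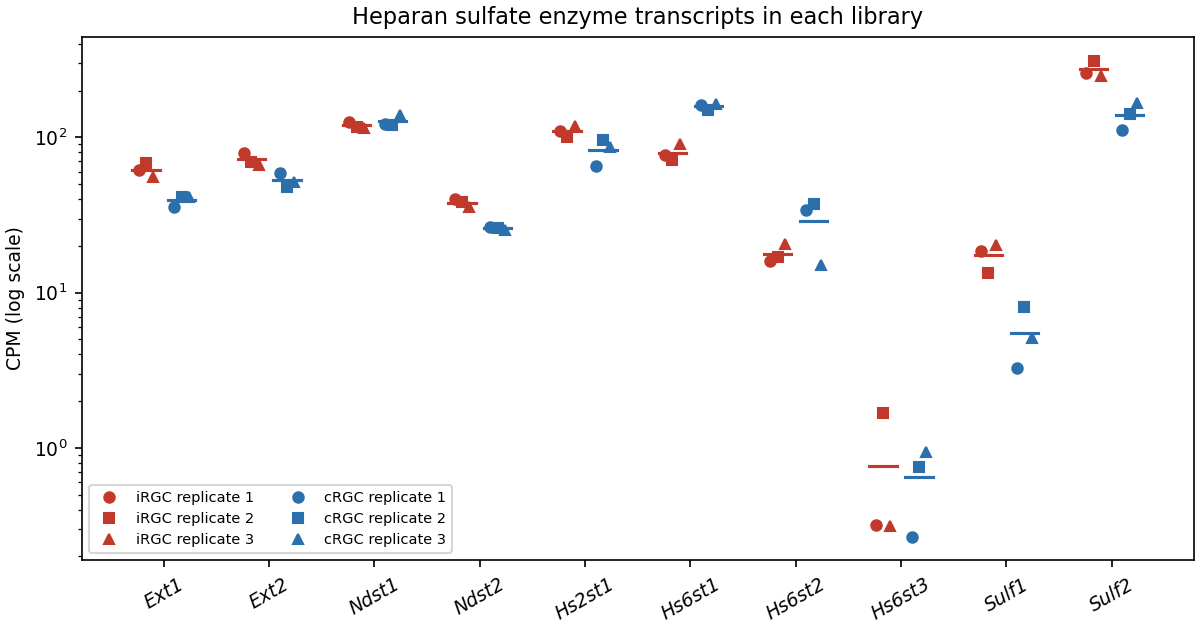
TMM-scaled CPM (vertical axis, log scale) of the 10 heparan sulfate enzyme genes in the 3 iRGC libraries (red) and 3 cRGC libraries (blue), with a symbol per library and a line at each mean. Ext1, Ext2, Ndst2, Hs2st1, Sulf1 and Sulf2 have all red symbols above all blue ones, Hs6st1 the reverse, and Ndst1, Hs6st2 and Hs6st3 overlap.

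Both subunits of the chain-lengthening polymerase were higher in iRGCs. Ext1 (chr15:53064038-53346159, minus strand, GRCm38) had 61.4, 68.5 and 55.3 CPM in iRGCs and 35.7, 41.2 and 41.5 CPM in cRGCs. The lowest iRGC library was above the highest cRGC library, and the means of 61.7 ± 6.58 and 39.4 ± 3.28 CPM (SD, n = 3 libraries each) differed 1.56-fold. The log2 fold change was 0.65 (SE 0.13) and the Benjamini-Hochberg adjusted p from edgeR was 0.00466. Ext2 (chr2:93661028-93822568, minus strand) had 79.9, 69.6 and 66.7 CPM in iRGCs and 58.9, 47.7 and 51.8 CPM in cRGCs, again without overlap. Its change was smaller, at 1.36-fold (log2 0.45, SE 0.13, adjusted p = 0.0238 by edgeR). The make-up of the pair overlapped between populations. Per kilobase of exon, Ext1 supplied 43.7% ± 3.12 of their combined transcripts in iRGCs and 40.5% ± 4.44 in cRGCs. An exact two-sided permutation test over the libraries gave p = 0.5 for this share, and 0.75 after adjustment over the 6 shares tested; with 3 libraries against 3 its smallest possible p is 0.1.

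Among the Ndst enzymes, which start the sulfation of the chain, Ndst2 differed and Ndst1 did not pass the test. Ndst1 (chr18:60684494-60748650, minus strand), the form needed in most tissues of the embryo, had 126, 117 and 114 CPM in iRGCs and 122, 120 and 140 CPM in cRGCs. The populations overlapped, the log2 fold change was -0.10 with a 95% interval of -0.34 to 0.15 (0.11 with library totals in place of TMM scaling), and edgeR's adjusted p was 0.529. Ndst2 (chr14:20723730-20734562, minus strand), known for its role in mast cell heparin, had 40.2, 38.1 and 35.6 CPM in iRGCs against 26.6, 26.0 and 25.2 CPM in cRGCs. All iRGC libraries were higher, by 1.46-fold between the means (log2 0.55, SE 0.13, edgeR adjusted p = 0.0104). Within each library Ndst1 therefore took a smaller part of the pair in iRGCs, 63.3%, 62.8% and 63.9% of the transcripts per kilobase, than in cRGCs, 71.6%, 71.8% and 75.4%. The difference was -9.58 percentage points and the libraries did not overlap, but the exact permutation test could give no less than its p of 0.1, which became 0.6 after adjustment over the 6 shares. The pair leaves out Ndst3 and Ndst4, at 3.00 and 1.43 CPM per kilobase of exon in iRGCs and 10.3 and 6.12 in cRGCs. This share is therefore not the part of Ndst1 in the whole Ndst family, for which no share was tested.

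Hs2st1 (chr3:144429706-144570181, minus strand), the only 2-O-sulfotransferase of heparan sulfate, had 109.9, 101 and 118 CPM in iRGCs and 65.1, 95.6 and 87.1 CPM in cRGCs. The groups did not overlap, although cRGC replicate 2 came close to iRGC replicate 2, and the mean was 1.33-fold higher in iRGCs. The log2 fold change of 0.41 (SE 0.15) passed with an edgeR adjusted p of 0.0614. This call was the least firm of the 7: by edgeR the adjusted p was 0.113 without iRGC replicate 1, 0.142 without iRGC replicate 3, 0.168 without cRGC replicate 1 and 0.115 without cRGC replicate 3, within a range of 0.0115 to 0.168 over all alternatives. Without cRGC replicate 1, the log2 fold change was 0.25.

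Of the 6-O-sulfotransferases, only Hs6st1 passed the test, and it was lower in iRGCs. Hs6st1 (chr1:36068400-36106446, plus strand) had 76.9, 71.4 and 90.3 CPM in iRGCs and 161, 149 and 164 CPM in cRGCs. The groups were far apart, with means of 79.5 ± 9.74 and 158 ± 8.04 CPM, or 1.99-fold more in cRGCs. The log2 fold change of -0.99 (SE 0.12) had an edgeR adjusted p of 3.72e-04. Of its exonic bases, 8.07% are also annotated to the antisense transcript Gm37335, which had 3, 4 and 0 counts in the iRGC libraries and 0 in each cRGC library. Hs6st2 (chrX:51387212-51681856, minus strand) had 15.9, 16.9 and 20.7 CPM in iRGCs, while 2 cRGC libraries had 34.2 and 37.3 CPM and cRGC replicate 3 had 15.1 CPM, below all the iRGC libraries. With that library the log2 fold change was -0.69 (95% interval -1.41 to 0.02) and the adjusted p by edgeR was 0.117. It passed without that library (log2 fold change -0.997, edgeR adjusted p 0.00738), with DESeq2 and under other gene filters, with a range of 0.00738 to 0.361 over the alternatives. Hs6st3 (chr14:119138341-119869815, plus strand) was barely detected, with 10, 54 and 10 counts in iRGCs and 7, 22 and 29 counts in cRGCs. A difference in Hs6st3 could not be resolved with these libraries: its 95% interval ran from -2.27 to 2.73 on the log2 scale.

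Hs6st1 made up most of this family in both populations, with 83.9% ± 3.10 of the transcripts per kilobase of exon in iRGCs and 87.5% ± 4.36 in cRGCs (exact permutation p = 0.4, adjusted 0.75). Hs6st2 followed with 13.3% ± 0.629 and 11.3% ± 4.67 (exact permutation p = 0.8, adjusted 0.8), and Hs6st3 with 2.74% ± 2.90 and 1.19% ± 0.642 (exact permutation p = 0.7, adjusted 0.8). Because the Hs6st3 exons annotated here add up to only 1708 bases, its level per kilobase depends on that annotation more than those of the others.

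Both Sulf genes, whose products undo 6-O-sulfation, were higher in iRGCs. Sulf1 (chr1:12692277-12861192, plus strand) had the largest fold change of the 10 enzymes, with 18.6, 13.4 and 20.4 CPM in iRGCs and 3.26, 8.07 and 5.13 CPM in cRGCs. No library crossed over, and the means differed 3.18-fold (log2 1.67, SE 0.35, edgeR adjusted p = 0.00505). It rested on modest counts, 434 to 648 per iRGC library and 85 to 234 per cRGC library. Sulf2 (chr2:166073089-166155663, minus strand) was far more abundant, with 260, 312 and 249 CPM in iRGCs and 111, 142 and 166 CPM in cRGCs. Its groups were separate too, with means of 274 ± 34.0 and 140 ± 27.7 CPM, 1.96-fold higher in iRGCs (log2 0.97, SE 0.16, edgeR adjusted p = 0.00154). At its end, 2.62% of the exonic bases of Sulf2 are shared with Ncoa3 on the opposite strand, and the strand setting used for counting is not given in the sources used here. Sulf1 was a small part of the pair, 3.29% ± 0.991 of the transcripts per kilobase in iRGCs and 1.99% ± 0.770 in cRGCs (exact permutation p = 0.2, adjusted 0.6).

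Hs6st1 and Sulf2, the most abundant genes for adding and removing 6-O-sulfate, thus moved in opposite directions. Per kilobase of exon, the ratio of Sulf2 to Hs6st1 was 3.19, 4.13 and 2.60 in the iRGC libraries and 0.650, 0.898 and 0.956 in the cRGC libraries, means of 3.31 ± 0.773 and 0.834 ± 0.162. On this scale Sulf2 exceeded Hs6st1 in every iRGC library and in no cRGC library. In CPM, not divided by exon length, Sulf2 was slightly above Hs6st1 in cRGC replicate 3 as well, at 166.3 against 164.2 CPM. This ratio was chosen after the values of both genes had been seen, and it is given without a test.

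Promoter sequence was examined for 7 of the 10 enzymes, with windows on the chromosome of Ndst1 left out. The windows, from RefSeq on GRCm38.p6, were 300 bases long, from 250 bases before to 50 bases after an annotated start. Those of Hs6st1, Sulf2 and Ext2 are shown, the first pair for the opposite changes above and Ext2 for a polymerase subunit with a Zic core in its window. Each is written 5′ to 3′ on the strand of the gene, and capitals mark the GC box GGGCGG (or its complement CCGCCC) and the Zic core CAGCAGG (or CCTGCTG), searched on both strands.
Hs6st1 (chr1:36068150-36068449, plus strand): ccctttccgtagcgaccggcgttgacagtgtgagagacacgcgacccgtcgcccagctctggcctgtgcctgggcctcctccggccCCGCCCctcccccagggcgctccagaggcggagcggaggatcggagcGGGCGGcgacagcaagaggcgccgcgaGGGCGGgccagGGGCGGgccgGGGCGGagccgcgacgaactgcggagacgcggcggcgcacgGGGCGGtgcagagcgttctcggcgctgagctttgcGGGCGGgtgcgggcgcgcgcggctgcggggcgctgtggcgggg
Sulf2 (chr2:166155634-166155933, minus strand): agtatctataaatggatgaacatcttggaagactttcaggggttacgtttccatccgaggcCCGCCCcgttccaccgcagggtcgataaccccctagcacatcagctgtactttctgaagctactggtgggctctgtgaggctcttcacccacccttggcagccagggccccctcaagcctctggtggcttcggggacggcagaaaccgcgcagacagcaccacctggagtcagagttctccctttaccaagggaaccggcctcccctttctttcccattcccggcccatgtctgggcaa
Ext2 (chr2:93822519-93822818, minus strand): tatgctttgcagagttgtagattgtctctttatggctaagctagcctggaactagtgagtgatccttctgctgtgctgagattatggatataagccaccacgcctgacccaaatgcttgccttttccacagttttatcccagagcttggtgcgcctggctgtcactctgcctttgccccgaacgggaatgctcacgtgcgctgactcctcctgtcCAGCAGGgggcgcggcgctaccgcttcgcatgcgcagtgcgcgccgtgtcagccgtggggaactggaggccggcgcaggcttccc
The Hs6st1 window was 78% G or C with 47 CpG and held 7 GC boxes, a number reached or passed by 0.628% of the 32817 RefSeq promoters. The median promoter was 52.7% G or C with 7 CpG, and 35.6% of promoters held at least 1 GC box. The Sulf2 window shown was 58% G or C with 12 CpG, and held 1 GC box and, at position -244 from the start and not in capitals, 1 TATA box match (TATAAA or TTTATA, which 13.6% of promoters hold). The table has another Sulf2 start, whose window (chr2:166155236-166155535) was 62.3% G or C with 26 CpG and held none of the 4 motifs. The Ext2 window was also 58% G or C, with 18 CpG, no GC box and 1 Zic core at position -35 from the start. That core occurs in 10.5% of all promoters and in none of the other windows examined. The homeodomain core TAATTA, found in 5.30% of all promoters, was in none of the windows examined. These are matches of letters, and whether any factor binds there was not tested.

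Levels of different genes can be compared only per length of transcript, and the order of the 10 enzymes by CPM per kilobase of exon was not the same in the populations. In iRGCs Sulf2 led with 46.6 ± 5.80, apart from all the others. Ndst1 (14.4 ± 0.733), Hs6st1 (14.4 ± 1.76) and Hs2st1 (13.3 ± 1.00) followed with overlapping ranges. Within single libraries Hs6st1 was above Hs2st1 in all 3, while the order of Ndst1 and Hs6st1 changed in iRGC replicate 3. Below them came Ext2 (9.83 ± 0.948), then Ndst2 (8.35 ± 0.503) and Ext1 (7.64 ± 0.814), which overlapped with each other, then Hs6st2 (2.29 ± 0.326), Sulf1 (1.55 ± 0.323) and Hs6st3 (0.450 ± 0.456). In cRGCs Hs6st1 (28.5 ± 1.45) and Sulf2 (23.8 ± 4.72) had overlapping ranges at the top, with Hs6st1 above Sulf2 in each of the 3 libraries, followed by Ndst1 (15.4 ± 1.33). Hs2st1 (10.1 ± 1.92) and Ext2 (7.20 ± 0.772) overlapped and came next, then Ndst2 (5.70 ± 0.154), Ext1 (4.88 ± 0.406) and Hs6st2 (3.69 ± 1.54). The ranges of the last pair overlapped, although Ext1 was the higher in all 3 libraries. Sulf1 (0.486 ± 0.214) and Hs6st3 (0.383 ± 0.202) were lowest and overlapped.

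The wider heparan sulfate pathway was taken as 35 genes for the linkage region, further chain enzymes and degradation. Of 32 tested, 5 were higher and 13 lower in iRGCs, with a median log2 fold change of -0.37, beside 23.3% higher, 23.1% lower and a median of -0.00 over all tested genes. Of these 18 calls, 10 held whichever library was left out. Ndst3, a neural form of the N-sulfotransferase, had 30.5, 26.3 and 32.0 CPM in iRGCs and 124, 83.2 and 96.8 CPM in cRGCs (log2 fold change -1.78, SE 0.17). Ndst4, its close relative, had 15.3, 13.7 and 21.3 CPM against 71.7, 73.7 and 69.7 CPM (-2.10, SE 0.18). In both genes the cRGC libraries were all well above the iRGC libraries. Per kilobase of exon, the level of Ndst3 was 3.00 in iRGCs and 10.3 in cRGCs and that of Ndst4 1.43 and 6.12, so these forms, minor beside Ndst1 and Ndst2 in iRGCs, both exceeded Ndst2 in cRGCs.

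The Hs3st enzymes add the rare 3-O-sulfate. Hs3st5 had 9.70, 15.7 and 20.7 CPM in iRGCs and 45.7, 59.3 and 56.1 CPM in cRGCs (log2 fold change -1.80, SE 0.26), and Hs3st2 also fell, by 2.30 on the log2 scale (SE 0.62), or by 3.34 without iRGC replicate 3. Hs3st4 passed in the other direction, at 39.7, 16.4 and 44.9 CPM in iRGCs against 16.1, 19.8 and 12.7 CPM in cRGCs (1.06, SE 0.35). Its libraries overlapped, because iRGC replicate 2 was in the cRGC range, and its edgeR adjusted p of 0.0402 rose to as much as 0.132 when iRGC replicate 1, iRGC replicate 3, cRGC replicate 1 or cRGC replicate 3 was left out. Extl3, which starts the chain, and Glce, the epimerase that acts between N- and 2-O-sulfation, were lower by 0.46 (SE 0.12) and 0.48 (SE 0.15) on the log2 scale. Both lost their calls when library totals replaced TMM scaling (edgeR adjusted p of 0.126 and 0.123), and Glce also without iRGC replicate 2 or cRGC replicate 3, with an edgeR adjusted p of up to 0.107. In all, 1 of the 11 tested further chain enzymes was higher and 6 were lower, beside 23.3% and 23.1% of all tested genes, and Extl1 and Hs3st6 were too low to test.

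**Figure D3:**
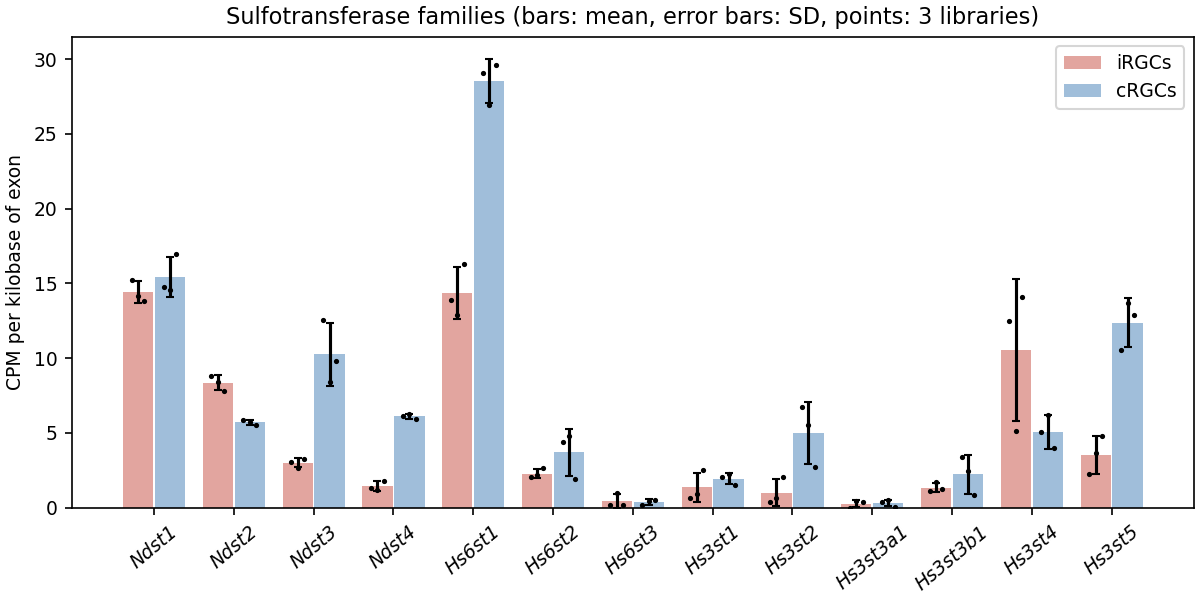
CPM per kilobase of exon (vertical axis, starting at 0) of the Ndst, Hs6st and Hs3st genes, with bars at the mean of 3 libraries, error bars for the SD and points for single libraries, in iRGCs (red) and cRGCs (blue). Hs6st1 stands at 14.4 in iRGCs and 28.5 in cRGCs, Ndst3 at 3.00 and 10.3, and Hs3st5 at 3.55 and 12.4.

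Genes for the linkage region, the short sugar bridge that ties the chain to its protein, and for the supply of precursors formed 1 list. Of 11 tested, 2 were higher and 4 lower, with a median of -0.26, beside 23.3% and 23.1% of all tested genes. Slc35b2, the Golgi transporter of the sulfate donor PAPS, rose, with 47.1, 44.5 and 50.8 CPM in iRGCs against 15.9, 26.5 and 29.0 CPM in cRGCs (log2 fold change 0.99, SE 0.22). No library overlapped. B4galt7 and B3gat3, glycosyltransferases of the linkage region, were lower by 0.68 and 0.63 on the log2 scale and kept their calls without any single library. Xylt1 (0.77) and Xylt2 (-0.60), the xylosyltransferases that begin it, went in opposite directions. Xylt1 lost its call without iRGC replicate 1, cRGC replicate 1 or cRGC replicate 2 (edgeR adjusted p up to 0.210), Xylt2 without cRGC replicate 1 (edgeR adjusted p 0.108), and Fam20b (-0.28), a xylose kinase, when any library other than iRGC replicate 1 was left out (edgeR adjusted p up to 0.301). Papss2, a PAPS synthase too low for the test, had 2.54, 1.76 and 0.126 CPM in iRGCs and was at 0 in cRGCs.

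Of the 10 degradation genes, 2 were higher and 3 lower, with a median of 0.07. These counts are near the 23.3% and 23.1% of all tested genes. Hpse, the heparanase that cleaves the chain, was higher at 4.08, 2.81 and 4.00 CPM in iRGCs against 0.422, 0.414 and 0.484 CPM in cRGCs (log2 fold change 3.03, SE 0.62), in every library but at a low level throughout. Ids, the lysosomal iduronate sulfatase, was lower at 95.7, 102 and 168 CPM against 369, 370.1 and 334 CPM (-1.55, SE 0.20). The calls of Sgsh (1.08), Idua (-0.62) and Hpse2 (-3.38) were each lost on leaving out single libraries: Sgsh without iRGC replicate 2 or 3 or cRGC replicate 1 or 3, Idua without any library but iRGC replicate 2, and Hpse2 without iRGC replicate 3 or cRGC replicate 2 or 3. Their edgeR adjusted p then reached 0.340, 0.364 and 0.394. The log2 fold change of Hpse2 was -4.26 without iRGC replicate 2 and -2.23 without cRGC replicate 3. That of Sgsh was 0.62 without iRGC replicate 2.

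**Figure D4:**
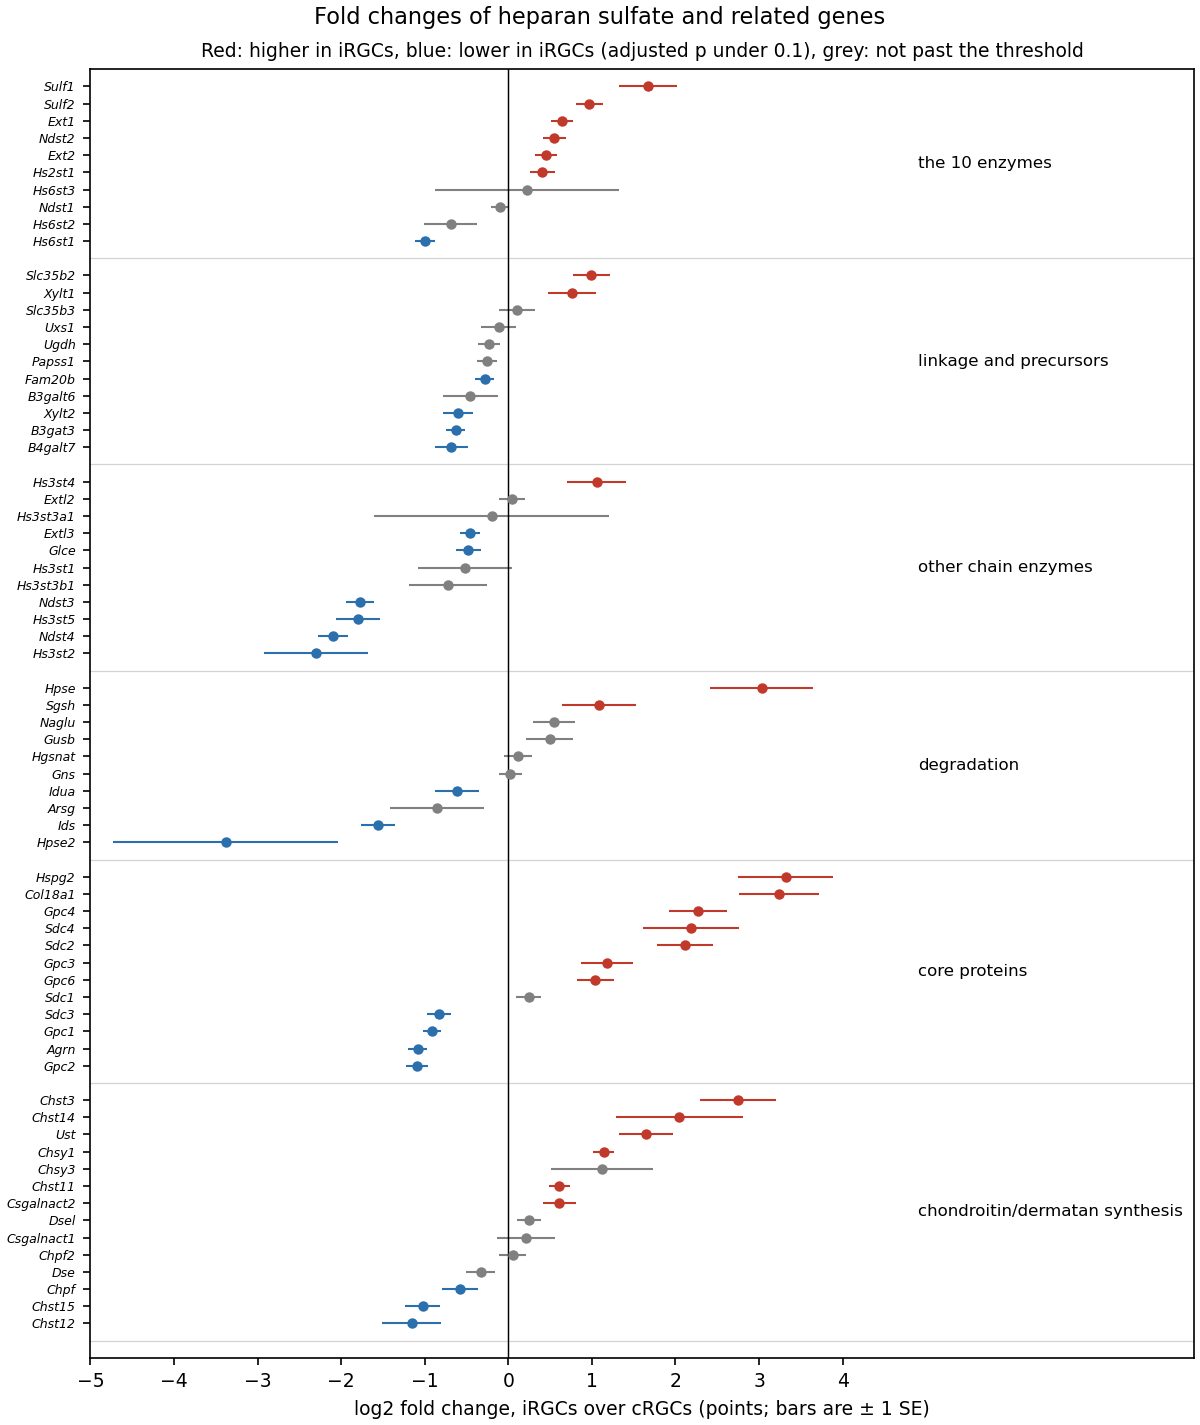
Log2 fold changes of iRGCs over cRGCs (horizontal axis, points with bars of 1 SE) for the 10 enzymes and 5 lists of related genes, red where higher and blue where lower in iRGCs at an adjusted p under 0.1 and grey otherwise. The 10 enzymes run from -0.99 (Hs6st1) to 1.67 (Sulf1), and Ndst3, Ndst4, Hs3st2 and Hs3st5 lie between -1.78 and -2.30.

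The proteins that carry the chains were nearly all different. Of 12 tested core proteins, 7 were higher and 4 lower, with a median of 1.11, beside 23.3%, 23.1% and -0.00 over all tested genes. The glypican Gpc4 had 23.9, 34.1 and 25.1 CPM in iRGCs against 4.11, 9.13 and 3.96 CPM in cRGCs (log2 fold change 2.27, SE 0.35), and the syndecan Sdc2 rose by a similar amount (2.12, SE 0.34). The core proteins Gpc1 (-0.91), Gpc2 (-1.09), Sdc3 (-0.83) and Agrn (-1.09) were lower. Hspg2 and Col18a1 had the largest changes (3.32 and 3.24). In the iRGC libraries Hspg2 had 86.0, 217 and 43.5 CPM and Col18a1 had 120.3, 241 and 75.5 CPM. Both were highest in iRGC replicate 2, where the endothelial marker Cdh5 was highest too. Mural, ciliary margin and erythroid marker sums were highest in that library as well, at 275, 274 and 94.6 CPM. Without it, the log2 fold changes of Hspg2 and Col18a1 were 2.48 and 2.66. The part of RNA from these cell types in these values was not tested.

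The enzymes of chondroitin and dermatan sulfate, the sister chains built on the same linkage region, included 6 higher and 3 lower of 14 tested, with a median of 0.43, beside the same background shares of 23.3% and 23.1%. Chst3, a chondroitin 6-O-sulfotransferase, had 30.4, 23.4 and 29.7 CPM in iRGCs against 1.88, 7.45 and 3.06 CPM in cRGCs (log2 fold change 2.75, SE 0.45, or 3.50 without cRGC replicate 2), and Chsy1, a chain polymerase, 107.9, 90.4 and 86.3 CPM against 41.2, 43.4 and 44.5 CPM (1.14, SE 0.13). Chst12 (-1.16) and Chst15 (-1.03), further chondroitin sulfotransferases, fell. Csgalnact2 lost its call without iRGC replicate 3 or cRGC replicate 3, and Chpf and Chst14 without iRGC replicate 1 or 2 or cRGC replicate 2 or 3, with edgeR adjusted p of up to 0.133, 0.183 and 0.173.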

How the data were processed

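GFP-positive cells of E16.5 retinas were profiled by RNA-seq, with 3 libraries of iRGCs and 3 of cRGCs. The authors aligned reads to mm10 with HISAT2 2.1.0, tallied them on Ensembl GRCm38 genes with HTSeq 0.11.1 and deposited raw counts per gene. Tallies naming no gene were left out of library sizes. Symbols, positions and exon lengths came from GENCODE M21 (46488 of 47069 genes matched). The 13 ATAC-seq samples were not analysed here.

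edgeR 4.0.16 in R 4.3.3 (filterByExpr, TMM, quasi-likelihood test, no block) tested these counts, calling genes at a Benjamini-Hochberg adjusted p under 0.1 over all 15941 tested genes, the false discovery rate of the study, which used DESeq2. SEs are the absolute log2 fold change over the square root of F. TMM scaling gave the iRGC libraries factors between 1.03 and 1.10, and the cRGC libraries between 0.921 and 0.953. With 3 libraries per population and a biological coefficient of variation of 36.3%, small changes of weakly expressed genes were not detectable. Shares of transcripts per kilobase were compared by exact permutation tests. Alternatives were DESeq2 1.42.0, limma 3.58.1 voom, other scalings and filters, protein-coding genes alone, stricter thresholds, a replicate block and each library left out. The edgeR step was tested on simulated data.

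The 10 enzymes, the gene lists and the markers were chosen with earlier results of these data known. All 10 enzymes are named, along with most called genes of the lists, Papss2 and the untested Extl1 and Hs3st6, and of each marker list its most abundant gene, its genes at 0 (1 marker is not reported here), Six3, Cdh5 and a few others. Papss2 and these others were picked after their values were seen, as were the Sulf2 to Hs6st1 ratio and the promoters shown.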

Additional observations from a re-analysis of the deposited data

How the results depend on the processing

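The directions of Ext1, Ext2, Ndst2, Hs2st1, Hs6st1, Hs6st2, Sulf1 and Sulf2 were kept in all alternatives run, with log2 fold changes of 0.56 to 0.85, 0.37 to 0.66, 0.51 to 0.76, 0.25 to 0.61, -1.10 to -0.79, -0.997 to -0.44, 1.39 to 2.07 and 0.82 to 1.18. As tested in the report, Hs2st1 was not past an adjusted p of 0.05. The number of enzymes lower in iRGCs was 2, by the addition of Hs6st2, with DESeq2, without a filter on low counts, with at least 10 counts in every library and with protein-coding genes alone. Leaving out single libraries gave 5 to 6 enzymes higher and 1 to 2 lower, 14 to 17 calls among the other pathway genes and 6305 to 7603 among all genes. With an absolute log2 fold change above 1 required as well, 1 enzyme was higher and 0 were lower in edgeR, where none of the 10 reached that size downward, and 9 other pathway genes and 3688 genes in all were called, in place of 18 and 7395. Library totals alone, without TMM factors, moved the median of all genes to 0.20 and Ndst1 to 0.11. The split of calls went from 3707 higher and 3688 lower to 5086 and 2847. This scaling ended the calls of Six3, Xylt2, Fam20b, Extl3, Glce, Idua and Chpf. It added Naglu, Gusb, Dsel and Sdc1, and the markers Cspg4, Dct, Cx3cr1 and Lhx1. Fam20b and Idua were not called with upper quartile factors or without the count filter either. Besides the endothelial losses given above, voom ended the calls of Hpse2, Sgsh and Chst14. It also ended those of Rgs5 (mural), Hba-a1, Hbb-bs and Hbb-bt (erythroid), and Msx1, Wfdc1, Gja1 and Ccnd2 (ciliary margin). Calls added by voom were those of Papss1, Dct, Cx3cr1, Bmp4, Onecut1 and Onecut2. Hs6st3 reversed to -0.0904 with voom, to -1.03 without iRGC replicate 2 and to -0.14 without cRGC replicate 1, and was 0.59 at most, without iRGC replicate 3. Shares from counts not divided by exon length differed by -7.17 percentage points for Ndst1 by 2.39 for Sulf1 and by 0.473 for Hs6st3, in place of -9.58, 1.30 and 1.56. Without single libraries the differences in share were 0.724 to 4.95 points for Ext1, -10.2 to -8.36 for Ndst1, 0.904 to 1.86 for Sulf1, -5.49 to -1.22 for Hs6st1, -0.592 to 3.84 for Hs6st2 and -0.119 to 2.44 for Hs6st3. The causes were not tested.

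Libraries with the same replicate number did not deviate together, with correlations of -0.0142, -0.0446 and -0.0669 for numbers 1 to 3, so the numbers are taken as names only. With the replicate number as a block, 6 enzymes were higher and 1 was lower, 14 other pathway genes and 6751 genes in all were called, and Hs6st3 turned to -0.0318. Among the related genes and endothelial markers, Xylt1, Hs3st4, Fam20b, Idua, Esam and Egfl7 were not called with it.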
